A study of Mus musculus with 24 samples.

Results

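Alveolar macrophages, the phagocytes that live on the surface of the lung's air spaces, were given IL-13 on top of IL-33, and their RNA was compared with that of macrophages given IL-33 alone. The comparison takes 6 of the 24 libraries of the series: 3 of cells that received recombinant IL-33 together with recombinant IL-13 (IL-33+IL-13), and 3 of cells that received recombinant IL-33 without it (IL-33). All are primary alveolar macrophages of wild-type BALB/cJ mice, an inbred laboratory strain, taken 20 h after stimulation, and the labels name no allele or agent besides these cytokines. The age of the mice is not given. The 24 libraries form 8 groups of 3, since IL-13, IL-33 and IL-17A were given alone and in each combination, with untreated cells as the control. The other groups used below are untreated cells and cells given IL-13 alone, and, as a second set, the 4 groups that received IL-17A as well. Expression is given in TPM, the authors' count of transcripts scaled for gene length and for the library's total, and 13215 genes with 1 TPM or more in at least 3 of the 24 libraries were tested. The labels do not tell whether replicate libraries are different mice, different dishes or repeats of the same RNA. A p-value here is therefore set by library-to-library spread, which may be technical.

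IL-13 is a cytokine of type 2 helper cells and innate lymphoid cells, and it acts through a receptor made of the IL-4 receptor alpha chain (Il4ra) and Il13ra1, whose kinases activate the transcription factor STAT6. In macrophages this pathway turns on the alternative activation program, with chitinase-like proteins, lectins, chemokines for type 2 cells and matrix enzymes, and it also turns on inhibitors of its own signal such as CISH and SOCS1. IL-33 is an alarmin that leaves damaged epithelium and acts through the receptor ST2 (Il1rl1) with Il1rap, MyD88 and NF-kB. Both cytokines are known from allergic lung disease, where alveolar macrophages meet them together.

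The 3 IL-33 libraries held 9.11 to 10.79 M recovered reads and the 3 IL-33+IL-13 libraries 9.17 to 10.55 M. Across genes, replicate libraries of the 8 groups correlated with Pearson r from 0.974 to 0.985. Genes that define alveolar macrophages were present in each of the 6 libraries: Siglecf, a sialic acid-binding lectin, was at 512, 486 and 526 TPM with IL-33 and 294, 308 and 286 TPM with IL-33+IL-13, and the fatty acid-binding protein gene Fabp4 at 193, 203 and 207 TPM with IL-33 and 379, 403 and 376 TPM with IL-33+IL-13. Itgax, the integrin CD11c, was at 1651, 1654 and 1856 TPM with IL-33 and 2329, 2524 and 2343 TPM with IL-33+IL-13. Of the marker lists for other cells, 2 fibroblast, 5 epithelial, 1 endothelial, 1 lymphocyte, 3 granulocyte or mast cell and 2 dendritic cell or monocyte genes reached the tests. The summed level of the fibroblast list was 26.0 to 28.5 TPM with IL-33 and 18.24 to 18.97 TPM with IL-33+IL-13, and that of the epithelial list 21.3 to 22.2 and 9.53 to 14.1 TPM. The endothelial list summed to 10.4 to 11.2 and 10.2 to 11.7 TPM, the lymphocyte list, almost wholly Il7r, to 179 to 184 and 154 to 166 TPM, and the dendritic cell and monocyte list to 4.27 to 5.7 and 3.25 to 4.84 TPM. The granulocyte list summed to 136 to 149.9 TPM with IL-33 and 67.3 to 109 TPM with IL-33+IL-13. The library that stood farthest from its replicates, IL-33+IL-13+IL-17A replicate 2, is not among the 6. Among the 6, IL-33 replicate 3 differed from replicates 1 and 2 of its group by a dispersion index of 5.98 and 4.4 in recovered reads, where 1 is counting noise alone, and those 2 differed from each other by 1.49. The libraries of this group are numbered 13, 14 and 30 in their titles, with no meaning given. Those of IL-33+IL-17A are numbered 16, 31 and 32, and those of IL-33+IL-13+IL-17A 22, 23 and 36. The other groups are numbered in series, so numbers out of series fall only in groups with IL-33. Whether this bears on the differences was not tested. Without IL-33 replicate 3, 1414 genes were higher and 1301 lower with IL-13, and the test against cells without IL-33 called 118. IL-33+IL-13 replicate 2 differed from replicates 1 and 3 by 4.09 and 2.79, and those differed by 1.74. Without it, 1190 genes were higher and 1658 lower, and that test called 152. Untreated replicate 1, used in that test, differed from replicates 2 and 3 by 6.23 and 6.42, and those differed by 1.48. Without it, the test called 132. In bulk RNA, fewer cells of a type and less RNA per cell cannot be told apart.

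With IL-33 present, IL-13 raised 1475 genes (11.2% of those tested) and lowered 1686 (12.8%), 3161 or 23.9% together, by limma at an adjusted p under 0.05. The median log2 difference over all tested genes was -0.02. Most changes were small: 147 genes (1.11%) rose and 102 (0.772%) fell at least 2-fold. The 3 libraries of one group lay beyond the 3 of the other for 39.0% of all genes, so such a separation is common here and is given below only as a description. Differences were taken between values of log2(TPM + 1), so those of genes near or below 1 TPM come out too small. TPM was computed over the whole gene span, introns included, so levels are compared between libraries for 1 gene and not between genes.

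Neither chain of the IL-13 receptor was called at the RNA level, while 4 feedback inhibitors of the SOCS family rose. Il4ra, the signalling chain of the IL-13 receptor, was at 8.99, 7.99 and 9.18 TPM with IL-33 and 7.7, 9.22 and 7.36 TPM with IL-33+IL-13, and Il13ra1, the chain that binds IL-13, at 13.1, 13.9 and 13.4 TPM with IL-33 and 12.7, 14.1 and 12.9 TPM with IL-33+IL-13. The groups overlap for both genes, and neither was called (log2 difference -0.10, adjusted p = 0.529 and -0.03, adjusted p = 0.829). Il2rg, the common gamma chain, fell from 439.5 ± 26.1 to 356 ± 10.3 TPM (SD, n = 3; log2 difference -0.30, adjusted p = 0.000163), and the kinase gene Jak2 rose by 0.47. Stat6 itself was not called, with 148 ± 10.3 TPM without and 126 ± 8.74 TPM with IL-13 (log2 difference -0.22, adjusted p = 0.089). Cish, a SOCS-family inhibitor of cytokine receptors and the largest increase on the log2(TPM + 1) scale, stood at 0.743, 0.985 and 0.971 TPM with IL-33 and 116, 133 and 129 TPM with IL-33+IL-13. It rose by 6.06 on the log2 scale (SE 0.20, limma adjusted p = 4.3e-14). It lies on chromosome 9, bases 107296026 to 107302784, in the mm10 build. Socs1, which blocks JAK kinases, was at 9.14, 5.05 and 8.89 TPM with IL-33 and 30.8, 30.5 and 27.8 TPM with IL-33+IL-13. It rose by 1.86 on the log2 scale (SE 0.23, limma adjusted p = 4.83e-06). Socs2 (1.26 ± 0.18 to 5.21 ± 0.37 TPM) and Socs3 (5.03 ± 1.38 to 13.5 ± 0.951 TPM) rose as well, by 1.46 and 1.29, and Ptpn6, the phosphatase SHP-1, fell by 0.52 on the log2 scale. Of the 20 tested genes of the list of IL-13 receptor, JAK-STAT and feedback genes, 6 rose, 3 fell and 11 were not called, with a median difference of -0.03, close to that of all genes. Over all genes 11.2% rose and 12.8% fell.

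On the side of IL-33, the receptor gene Il1rl1 was barely detected in these cells. It was at 0.056, 0.0619 and 0.0272 TPM with IL-33 and 0.0609, 0.0286 and 0.0269 TPM with IL-33+IL-13, and did not enter the tests. Its partner Il1rap rose from 1.62 ± 0.0939 to 2.72 ± 0.147 TPM (log2 difference 0.51, SE 0.09, limma adjusted p = 0.000182). Of 19 tested genes of the IL-33 receptor and MyD88 pathway, 2 rose and 2 fell (10.5% each way), near the 11.2% and 12.8% of all genes, so the counts set nothing apart. The risers were Il1rap and the AP-1 gene Fos (163 ± 13.7 to 277 ± 17.2 TPM), and the fallers were Irak2, a kinase of the pathway (28.8 ± 0.978 to 20.9 ± 0.412 TPM), and its inhibitor Irak3 (5.63 ± 0.189 to 3.88 ± 0.466 TPM). Il17ra, a chain of the IL-17A receptor, fell from 45.5 ± 1.97 to 30.6 ± 3.01 TPM (log2 difference -0.56, SE 0.10, limma adjusted p = 0.000201).

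The 12 largest increases hold signalling feedback, transcription, lipid and chemokine genes besides the chitinase-like gene Chil3. Ccl22, a chemokine for type 2 helper cells, was at 0.329, 0.545 and 0.799 TPM with IL-33 and 21.1, 21.5 and 21.6 TPM with IL-33+IL-13. It rose by 3.86 on the log2 scale (SE 0.22, limma adjusted p = 1.37e-10). Ch25h, which makes 25-hydroxycholesterol, was at 44.9, 49.6 and 54.2 TPM with IL-33 and 642, 739 and 628 TPM with IL-33+IL-13. It rose by 3.73 on the log2 scale (SE 0.11, limma adjusted p = 1.33e-14). Ptgs1, the constitutive cyclooxygenase, was at 1.56, 1.73 and 1.74 TPM with IL-33 and 18.4, 21 and 20.3 TPM with IL-33+IL-13. It rose by 2.96 on the log2 scale (SE 0.09, limma adjusted p = 2.1e-14). For each of these genes the 3 libraries with IL-13 stood above the 3 without it, which was a condition for naming them. The IL-33 libraries of Ccl22 were all below 1 TPM. Rnase2a, a ribonuclease of the eosinophil-associated family, was listed at 0 in the 3 IL-33 libraries and stood at 53.9, 53 and 83.8 TPM in the others. With a pseudocount of 0.1, which weighs values near 0 more, Rnase2a and Ocstamp had larger differences than Cish (9.28 and 7.98, against 6.99). Near-identical copies of Rnase2a exist, so its reads are uncertain. Ocstamp, whose membrane protein takes part in macrophage fusion, was also listed at 0 in each IL-33 library and stood at 25, 23.6 and 27 TPM with IL-33+IL-13. Plekhf1, an endosomal adaptor (0.789 ± 0.421 to 18.3 ± 0.58 TPM, log2 difference 3.46), Awat1, a wax ester synthase (3.2 ± 0.638 to 33.3 ± 1.99 TPM, 3.04), and Il20rb, a chain of receptors for the IL-20 family (0.813 ± 0.0463 to 13.8 ± 0.88 TPM, 3.03), complete the set with Mmp13 and Irf4, described below.

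**Figure D1:**
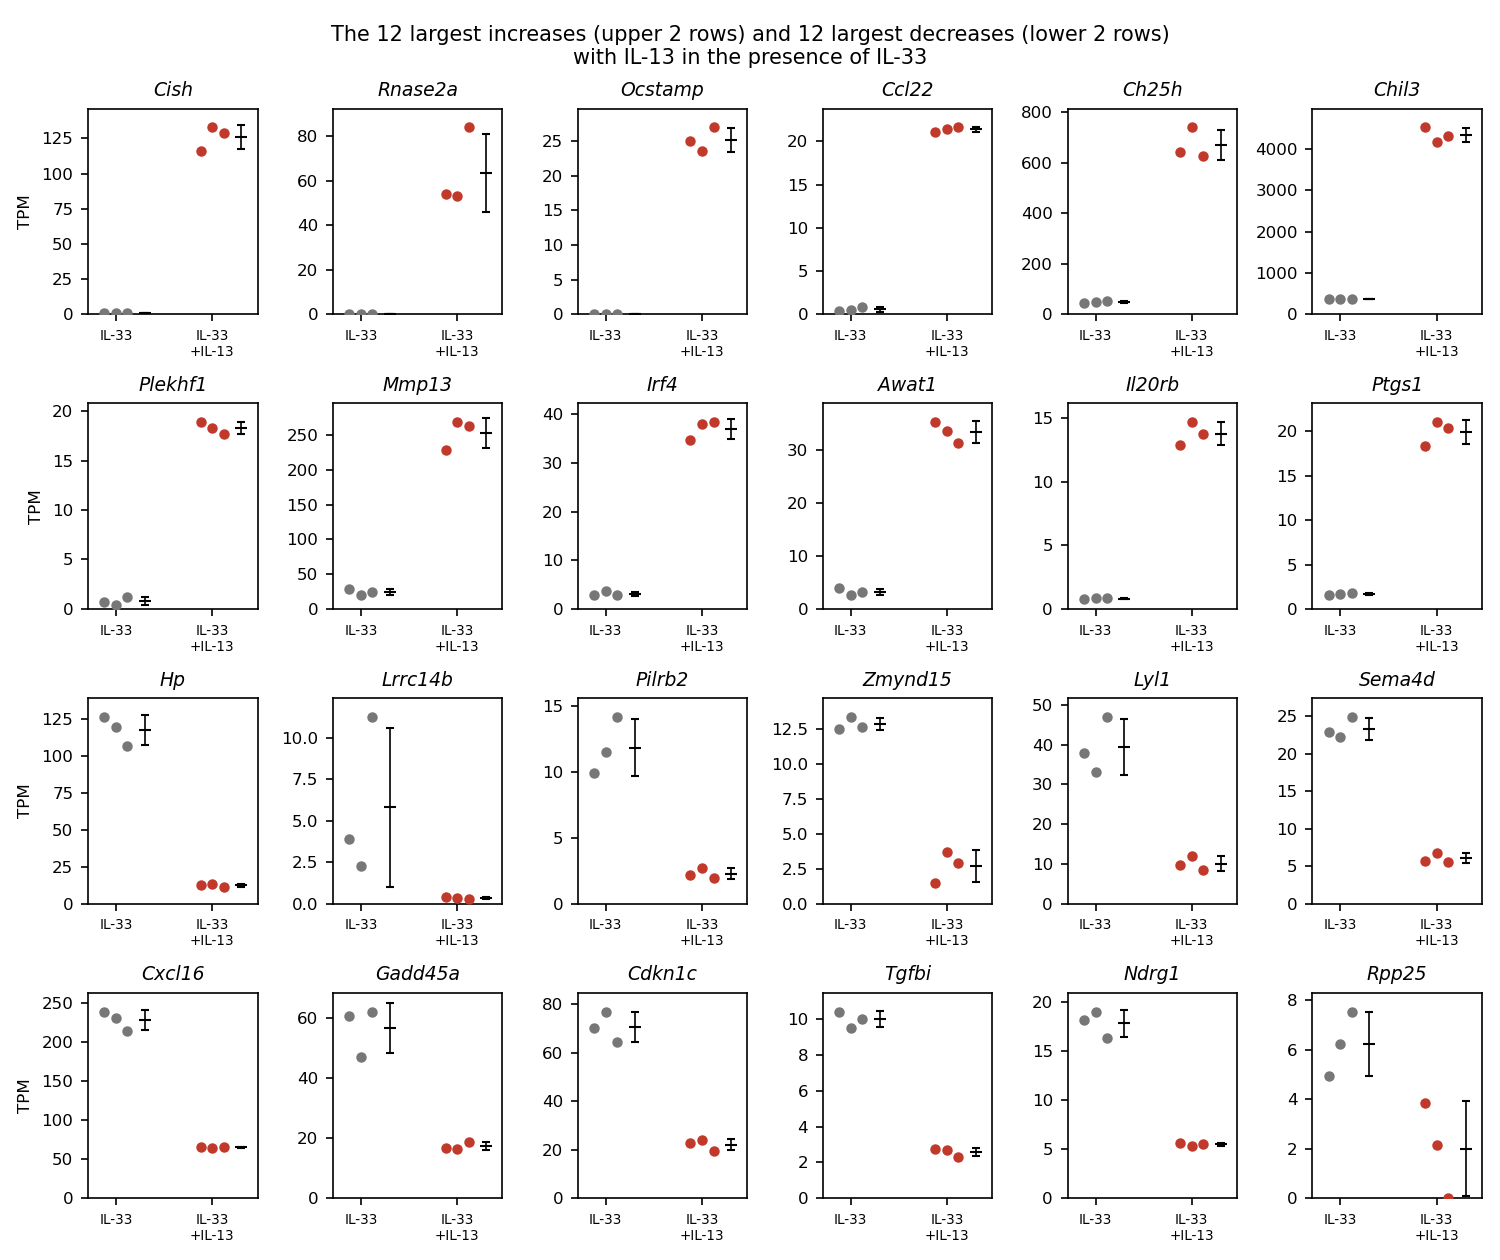
TPM (linear axis from 0) in the 3 IL-33 libraries (grey points) and the 3 IL-33+IL-13 libraries (red points) for the 12 largest increases and the 12 largest decreases among called genes with a mean of at least 5 TPM in the higher group and no overlap of the libraries; black marks are the mean and SD. Rnase2a and Ocstamp sit at 0 in the 3 IL-33 libraries, and Cish goes from below 1 TPM to above 116 TPM.

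Most transcription factors tied to the type 2 program rose. Of 18 tested members of that list 11 rose (11.2% of all genes did) and 1 fell, with a median difference of 0.47. Irf4, a factor that cooperates with STAT6, was at 2.88, 3.63 and 2.86 TPM with IL-33 and 34.6, 38 and 38.3 TPM with IL-33+IL-13. It rose by 3.21 on the log2 scale (SE 0.12, limma adjusted p = 3.91e-13). Batf3, which partners with IRF4, was at 4.79, 3.8 and 3.87 TPM with IL-33 and 17.5, 20.9 and 19.8 TPM with IL-33+IL-13. It rose by 1.99 on the log2 scale (SE 0.11, limma adjusted p = 5.27e-11). Pparg, the nuclear receptor on which the identity of alveolar macrophages depends, was at 7.55, 8.04 and 7.88 TPM with IL-33 and 23.2, 21.3 and 22 TPM with IL-33+IL-13. It rose by 1.39 on the log2 scale (SE 0.05, limma adjusted p = 6.68e-14). The 2 groups were well apart for each of the 3 factors, which for Irf4 was a condition for naming it. Nfil3 rose from 7.08 ± 0.837 to 20.2 ± 0.868 TPM, Myc from 43.6 ± 4.43 to 112 ± 5.64 TPM and Klf4 from 35.6 ± 2.78 to 76.4 ± 5.37 TPM, while the repressor gene Bcl6 fell from 22.6 ± 1.46 to 17.9 ± 0.711 TPM (log2 difference -0.32, adjusted p = 0.00628). Among factors of the myeloid lineage, Tfec rose from 2.94 ± 0.241 to 9.41 ± 0.95 TPM, and Irf8, a factor of monocyte development, fell from 107 ± 0.74 to 60 ± 3.9 TPM (log2 difference -0.83, adjusted p = 7.93e-10). Lyl1, a basic helix-loop-helix factor of blood progenitors, was at 38, 33.1 and 47 TPM with IL-33 and 9.69, 12 and 8.56 TPM with IL-33+IL-13 (log2 difference -1.86, SE 0.12, limma adjusted p = 7.42e-10); its gene overlaps Nfix on the other strand.

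Most tested effector genes of alternative activation rose. Of 19 tested members 15 rose and none fell, and 5 of the 19 reached 1 TPM in 3 libraries only among those with IL-13, so they could hardly do otherwise. Of the 14 that passed that filter also without IL-13, 11 (78.6%) rose, beside 11.4% of all such genes. Chil3 (Ym1), a chitinase-like protein that forms crystals in allergic lungs, was at 364, 372 and 364 TPM with IL-33 and 4522, 4182 and 4323 TPM with IL-33+IL-13 (log2 difference 3.56, SE 0.04, limma adjusted p = 7.93e-22), on chromosome 3, bases 106147554 to 106167564 of mm10. Its close copy Chil4 shares sequence with it, so the split of reads between them is uncertain. The transglutaminase gene Tgm2, a marker of alternative activation, was at 115, 111 and 124 TPM with IL-33 and 380.1, 419 and 386 TPM with IL-33+IL-13. It rose by 1.75 on the log2 scale (SE 0.07, limma adjusted p = 7.68e-13). Cdh1, the adhesion protein E-cadherin, was at 3.44, 2.89 and 4.6 TPM with IL-33 and 28.5, 34.3 and 32.7 TPM with IL-33+IL-13. It rose by 2.83 on the log2 scale (SE 0.13, limma adjusted p = 6.72e-12). The lectin receptor genes Clec7a (Dectin-1, 887 ± 20 to 1407 ± 23.6 TPM) and Mrc1 (the mannose receptor, 89.1 ± 3.28 to 166 ± 11.4 TPM) rose less. The classic markers Arg1 and Retnla stayed low: Arg1 reached 0.712, 0.753 and 0.943 TPM with IL-33+IL-13, and Retnla 4, 1.61 and 1.51 TPM, from 0 in each IL-33 library. Both were called, but their groups rest on few reads. Il1rn, the IL-1 receptor antagonist, had 148 ± 11.9 TPM without and 163 ± 7.87 TPM with IL-13 and was not called (log2 difference 0.14, adjusted p = 0.289).

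The promoters of the largest increases were searched for STAT-type sites in the 250 bases before the RefSeq start, on both strands, using RefSeq sequences of the GRCm38.p6 build. The motif TTCNNNNGAA, the spacing STAT6 favours, was in 1 of the 11 genes that had a window (9.09%) and in 5.40% of 8906 tested genes with one. The spacing TTCNNNGAA, used by other STATs, was in 1 of 11 as well, beside 7.13%. These shares give no more than a description, and a window without the letters says nothing on STAT6 at other places. The matches were in Plekhf1 and in Chil3, and a stretch of 100 bases of each is shown so that the site can be seen in place, 5′ to 3′ on the gene's strand, with the motif in capitals. The Plekhf1 stretch is chr7:38228059-38228158 on the minus strand and the motif begins 119 bases before the start; the Chil3 stretch is chr3:106167683-106167782 on the minus strand and the motif begins 172 bases before the start.
Plekhf1: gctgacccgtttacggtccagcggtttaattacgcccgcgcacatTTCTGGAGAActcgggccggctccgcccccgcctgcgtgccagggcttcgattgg
Chil3: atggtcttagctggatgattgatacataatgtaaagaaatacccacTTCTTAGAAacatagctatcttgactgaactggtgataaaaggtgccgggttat

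Chemokine and cytokine genes moved in both directions. Of 14 tested chemokine ligands 5 rose and 2 fell, beside 11.2% and 12.8% of all genes. Without the 3 that reached the filter only in libraries with IL-13, 4 of 11 rose. The fallers were Cxcl16 and Cxcl14, the latter by 0.12 on the log2 scale (limma adjusted p = 0.0132). Only 1 faller was called with median-ratio scaling, by voom, or in fits to the groups compared or to the libraries without IL-17A. The same held without IL-33 replicate 1, without IL-33 replicate 3 or without IL-33+IL-13 replicate 3. Ccl6, a macrophage chemokine of mice, was at 158, 157 and 173 TPM with IL-33 and 464, 479.7 and 511 TPM with IL-33+IL-13. It rose by 1.57 on the log2 scale (SE 0.07, limma adjusted p = 3.11e-12). Cxcl3, a neutrophil chemokine, was at 7.75, 5.08 and 6.7 TPM with IL-33 and 26.5, 27.9 and 25.1 TPM with IL-33+IL-13 (log2 difference 1.89, SE 0.21, limma adjusted p = 1.05e-06), while its relatives Cxcl1 (19 ± 5.4 to 18.4 ± 6.51 TPM) and Cxcl2 (43.1 ± 10.7 to 40.4 ± 8.48 TPM) overlapped between groups and were not called (adjusted p = 0.896 and 0.867). Cxcl16, a membrane-bound chemokine and scavenger receptor, was at 239, 231 and 214 TPM with IL-33 and 65.6, 64 and 65.8 TPM with IL-33+IL-13. It fell by 1.79 on the log2 scale (SE 0.05, limma adjusted p = 6.48e-15). Zmynd15, which overlaps Cxcl16 on the other strand, was lower too (12.9 ± 0.447 to 2.71 ± 1.13 TPM); whether counting used the strand is not given, so the reads of this pair cannot be told apart. Of 20 tested NF-kB and inflammatory cytokine genes 4 rose and 7 fell. Il1b, the main inflammasome product, was at 8.1, 5.91 and 7.43 TPM with IL-33 and 30.9, 36.4 and 33 TPM with IL-33+IL-13. It rose by 2.09 on the log2 scale (SE 0.12, limma adjusted p = 1.36e-10). Il1a rose from 82.9 ± 1.67 to 151 ± 0.924 TPM. Tnf was at 172, 141 and 168 TPM with IL-33 and 92.7, 104 and 102 TPM with IL-33+IL-13 (log2 difference -0.68, SE 0.08, limma adjusted p = 4.58e-06), and Il18, another inflammasome product, fell from 24.5 ± 1.5 to 11.6 ± 0.504 TPM (log2 difference -1.01, adjusted p = 1.12e-07). Il1a and Il1b thus differed in direction from Tnf and Il18, with no overlap of the groups for Il1b, Il1a, Tnf or Il18.

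Of the 17 tested metalloproteinase, inhibitor, growth factor and matrix genes 10 rose and 6 fell. Over all genes 11.2% rose and 12.8% fell, the shares beside which each list of this paragraph stands. Mmp13, a collagenase, was at 29, 20 and 25.1 TPM with IL-33 and 229, 269 and 263 TPM with IL-33+IL-13. It rose by 3.32 on the log2 scale (SE 0.13, limma adjusted p = 6.82e-13). Mmp19 was at 64.4, 69.7 and 74.4 TPM with IL-33 and 270.2, 299 and 282 TPM with IL-33+IL-13. It rose by 2.01 on the log2 scale (SE 0.07, limma adjusted p = 3.82e-14). Igf1, a growth factor for mesenchymal cells, was at 5.35, 6.09 and 5.79 TPM with IL-33 and 14, 13.4 and 14.9 TPM with IL-33+IL-13. It rose by 1.16 on the log2 scale (SE 0.06, limma adjusted p = 7.78e-11). All 3 genes were higher in each IL-33+IL-13 library than in any IL-33 library, which for Mmp13 was a condition for naming it. Fn1, fibronectin, rose from 4.14 ± 1.19 to 16.9 ± 1.23 TPM and Hbegf, an EGF-family growth factor, from 1.11 ± 0.463 to 5.16 ± 0.402 TPM. The fallers were Spp1, osteopontin (816 ± 84.2 to 479 ± 13.1 TPM), the membrane metalloproteinase gene Mmp14 (23.3 ± 2.09 to 9.73 ± 1.14 TPM), Timp2, Pdgfb, Plau and Adam17. Among 17 tested genes of macrophage fusion and osteoclasts 8 rose and 3 fell (5 fell without IL-33+IL-13 replicate 2), with Dcstamp, a relative of Ocstamp, rising from 3.91 ± 0.487 to 7.17 ± 0.836 TPM (log2 difference 0.74, adjusted p = 7.5e-05). This list and the eicosanoid list below each held 1 gene that reached the filter only in libraries with IL-13. Without that gene, 7 of 16 rose in the fusion list and 6 of 16 in the eicosanoid list. In the eicosanoid list 7 of 17 rose and 6 fell: besides Ptgs1, the prostacyclin receptor gene Ptgir (105 ± 6.96 to 359.7 ± 17.9 TPM) and the thromboxane synthase gene Tbxas1 (3.04 ± 0.279 to 7.55 ± 0.199 TPM) rose, while Alox5 (9.83 ± 1.23 to 5.09 ± 0.435 TPM) and Alox5ap (45.7 ± 2.5 to 28.6 ± 1.35 TPM), which begin leukotriene synthesis, fell.

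The largest decrease of a called gene was that of Hp, haptoglobin, the scavenger of free haemoglobin, at 126, 119 and 107 TPM with IL-33 and 12.7, 13.4 and 11.4 TPM with IL-33+IL-13. It fell by 3.13 on the log2 scale (SE 0.16, limma adjusted p = 3.11e-11). The granulocyte markers Csf3r (5.57 ± 0.639 to 2.49 ± 0.359 TPM), Cxcr2 (6.86 ± 0.947 to 2.61 ± 0.619 TPM) and S100a8 (129 ± 6.71 to 85.7 ± 21.3 TPM), 3 of the 16 listed, were each called lower as well, and their part in this decrease was not tested. The call of S100a8 ended in a fit to these 6 libraries alone (adjusted p = 0.0686). Sema4d, a semaphorin of immune cells, was at 22.8, 22.2 and 24.9 TPM with IL-33 and 5.74, 6.79 and 5.58 TPM with IL-33+IL-13. It fell by 1.79 on the log2 scale (SE 0.10, limma adjusted p = 8.32e-11). Cdkn1c, the cell cycle inhibitor p57, was at 70.3, 76.9 and 64.5 TPM with IL-33 and 22.9, 23.8 and 19.5 TPM with IL-33+IL-13. It fell by 1.63 on the log2 scale (SE 0.18, limma adjusted p = 8.58e-07). The stress gene Gadd45a was at 60.7, 47 and 62.1 TPM with IL-33 and 16.6, 16.5 and 18.8 TPM with IL-33+IL-13. It fell by 1.65 on the log2 scale (SE 0.14, limma adjusted p = 3.18e-08). No library of one group reached the other in any of the 4 genes, which was a condition for naming them. Tgfbi, a TGF-beta induced matrix protein (9.99 ± 0.448 to 2.59 ± 0.244 TPM), Ndrg1, a hypoxia and stress gene (17.8 ± 1.4 to 5.48 ± 0.158 TPM), and Pilrb2, an activating receptor of a family of close copies (11.9 ± 2.17 to 2.29 ± 0.413 TPM), fell by 1.62, 1.53 and 1.96 on the log2 scale. Lrrc14b (3.87, 2.26 and 11.2 TPM with IL-33 and 0.393, 0.314 and 0.292 TPM with IL-33+IL-13) overlaps Ccdc127 on the other strand and varied among the IL-33 libraries. Rpp25, a subunit of ribonuclease P, was at 4.94, 6.24 and 7.55 TPM with IL-33 and 3.84, 2.16 and 0 TPM with IL-33+IL-13, and its call ended when the model was fitted to these 6 libraries alone (adjusted p = 0.124).

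Several receptors that sense microbes and immune complexes fell with IL-13. Of 23 tested Toll-like, lectin and formyl peptide receptors 9 fell (12.8% of all genes did) and 5 rose. Without the 2 that reached the filter only in libraries without IL-13, 8 of 21 fell and 5 rose. Of all genes that reached the filter both with and without IL-13, 1614 of 12468 fell. Cd14, the lipopolysaccharide co-receptor, was at 1537, 1533 and 1643 TPM with IL-33 and 647, 619 and 608 TPM with IL-33+IL-13. It fell by 1.33 on the log2 scale (SE 0.04, limma adjusted p = 6.48e-15). Clec4d was at 279, 291 and 286 TPM with IL-33 and 117, 107 and 110.3 TPM with IL-33+IL-13 (log2 difference -1.35, SE 0.05, limma adjusted p = 1.57e-13), and its neighbour and partner Clec4e, the receptor Mincle, fell from 246 ± 20.7 to 104 ± 1.53 TPM. Tlr2 fell from 490.5 ± 44.1 to 295 ± 18.1 TPM, but Tlr4 (6.73 ± 0.345 to 11.7 ± 0.448 TPM) and Tlr8 (47.2 ± 6.49 to 83.5 ± 4.84 TPM) rose. Clec12a, an inhibitory lectin, was at 4.71, 4.76 and 5.05 TPM with IL-33 and 0.483, 0.68 and 0.341 TPM with IL-33+IL-13. It fell by 1.97 on the log2 scale (SE 0.11, limma adjusted p = 6.17e-11). Of 17 Fc and complement genes 8 fell and 3 rose: the shared signalling chain Fcer1g fell from 663 ± 3.76 to 465 ± 26.5 TPM and the activating receptor gene Fcgr3 from 286 ± 4.97 to 226 ± 9.06 TPM, while the inhibitory receptor gene Fcgr2b rose from 27.7 ± 0.515 to 42.3 ± 1.16 TPM. Of the 15 Fc and complement genes that reached the filter both with and without IL-13, 7 fell and 3 rose. The granulocyte list also had a lower sum with IL-13, as given above, and its part in these counts was not tested. Of 29 lysosomal genes 16 fell and 5 rose, with a median difference of -0.11; the changes were small, such as cathepsin K (Ctsk, 3758 ± 87.2 to 3074 ± 49.4 TPM), and the risers included the proton pump gene Atp6v0a1 (106 ± 8.01 to 193 ± 11.4 TPM). With median-ratio scaling of TPM, 12 of the 29 lysosomal genes fell and 4 rose. Of 12 tested interferon-stimulated genes 2 fell (Gbp2 and Gbp3), a share near the 12.8% of all genes, and none rose.

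Genes of the secretory pathway, of protein synthesis and of respiration were called higher more often than all genes (11.2%), and none of them fell. Of 23 tested genes of folding and transport in the endoplasmic reticulum 20 rose and none fell, with a median difference of 0.69. Pdia4, a disulfide isomerase, was at 83.8, 80.6 and 88.3 TPM with IL-33 and 216, 229 and 220.1 TPM with IL-33+IL-13. It rose by 1.39 on the log2 scale (SE 0.05, limma adjusted p = 4.98e-14). Hspa5, the chaperone BiP, was at 2296, 2332 and 2469 TPM with IL-33 and 4037, 4394 and 4084 TPM with IL-33+IL-13. It rose by 0.82 on the log2 scale (SE 0.05, limma adjusted p = 1.25e-10). The groups were apart for both genes. The 3 members not called were Edem1, Atf6 and Ern1, of which Atf6 and Ern1 encode sensors of unfolded protein. Of 19 cytosolic aminoacyl-tRNA synthetases 15 rose and none fell (median 0.23), of 26 genes of ribosome biogenesis 15 rose and none fell (0.24), and of 30 subunits of oxidative phosphorylation 22 rose and none fell (0.17). The tRNA synthetase count went to 10 without IL-33 replicate 1 or without IL-33+IL-13 replicate 2, and the ribosome biogenesis count to 10 without IL-33+IL-13 replicate 2. The serine and folate enzymes and the Atf4 response had 13 of 21 higher and none lower. Phgdh, the first enzyme of serine synthesis, was at 40.4, 43.1 and 45.8 TPM with IL-33 and 77.9, 89.5 and 79.7 TPM with IL-33+IL-13 (log2 difference 0.92, SE 0.06, limma adjusted p = 1.7e-09), and its partner Psat1 rose from 10.2 ± 0.611 to 21.3 ± 0.481 TPM. Mthfd2, of mitochondrial folate metabolism, rose from 26.8 ± 1.43 to 47 ± 0.472 TPM.

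Among 22 genes of glycolysis and hypoxia 9 rose and 5 fell. The shares over all genes, 11.2% higher and 12.8% lower, stand beside this and each list below. Ldha, lactate dehydrogenase, was at 405, 410.2 and 432 TPM with IL-33 and 762, 790.0 and 750.5 TPM with IL-33+IL-13 (log2 difference 0.88, SE 0.03, limma adjusted p = 6.48e-15), whereas Slc16a3, which exports lactate, went down from 172 ± 9.21 to 118 ± 5.01 TPM. Of 27 genes of sterol and fatty acid synthesis 11 rose and 1 fell, a count that went to 18 higher with median-ratio scaling of TPM. In turn, 9 of 21 genes of fatty acid oxidation and peroxisomes rose and none fell, led by the peroxisomal transporter gene Abcd2 at 18.5, 19.3 and 21.7 TPM with IL-33 and 84.5, 94.7 and 92.3 TPM with IL-33+IL-13. It rose by 2.14 on the log2 scale (SE 0.09, limma adjusted p = 6.74e-13). Arginine and polyamine genes had 7 of 19 higher and 4 lower; the arginine transporter gene Slc7a2 was at 167, 165 and 188 TPM with IL-33 and 422, 468 and 428 TPM with IL-33+IL-13 (log2 difference 1.34, SE 0.12, limma adjusted p = 6.31e-08), and Odc1 and Srm, 2 enzymes of polyamine synthesis, went from 129 ± 5.21 to 197 ± 6.28 TPM and, in that order, from 181 ± 8.64 to 285 ± 8.64 TPM. Iron genes were split: Tfrc, the transferrin receptor, was at 8.54, 9.81 and 10.9 TPM with IL-33 and 27, 30.1 and 29.7 TPM with IL-33+IL-13 (log2 difference 1.48, SE 0.10, limma adjusted p = 2.39e-09), while Slc11a1, the phagosomal metal exporter, was at 633, 650.2 and 669 TPM with IL-33 and 369.9, 375 and 378 TPM with IL-33+IL-13 (log2 difference -0.80, SE 0.05, limma adjusted p = 1.25e-10), and Fth1, ferritin heavy chain, fell from 12714 ± 388 to 9051 ± 253 TPM. Of 27 genes of alveolar macrophage identity 11 rose and 6 fell, among them Ear2 higher (615 ± 14.2 to 2899 ± 155 TPM) and Siglecf lower (log2 difference -0.78, adjusted p = 1.45e-09). The arginine and polyamine list and the identity list each held 1 gene that reached the filter only in libraries with IL-13. Without that gene, 6 of 18 and 10 of 26 rose.

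**Figure D2:**
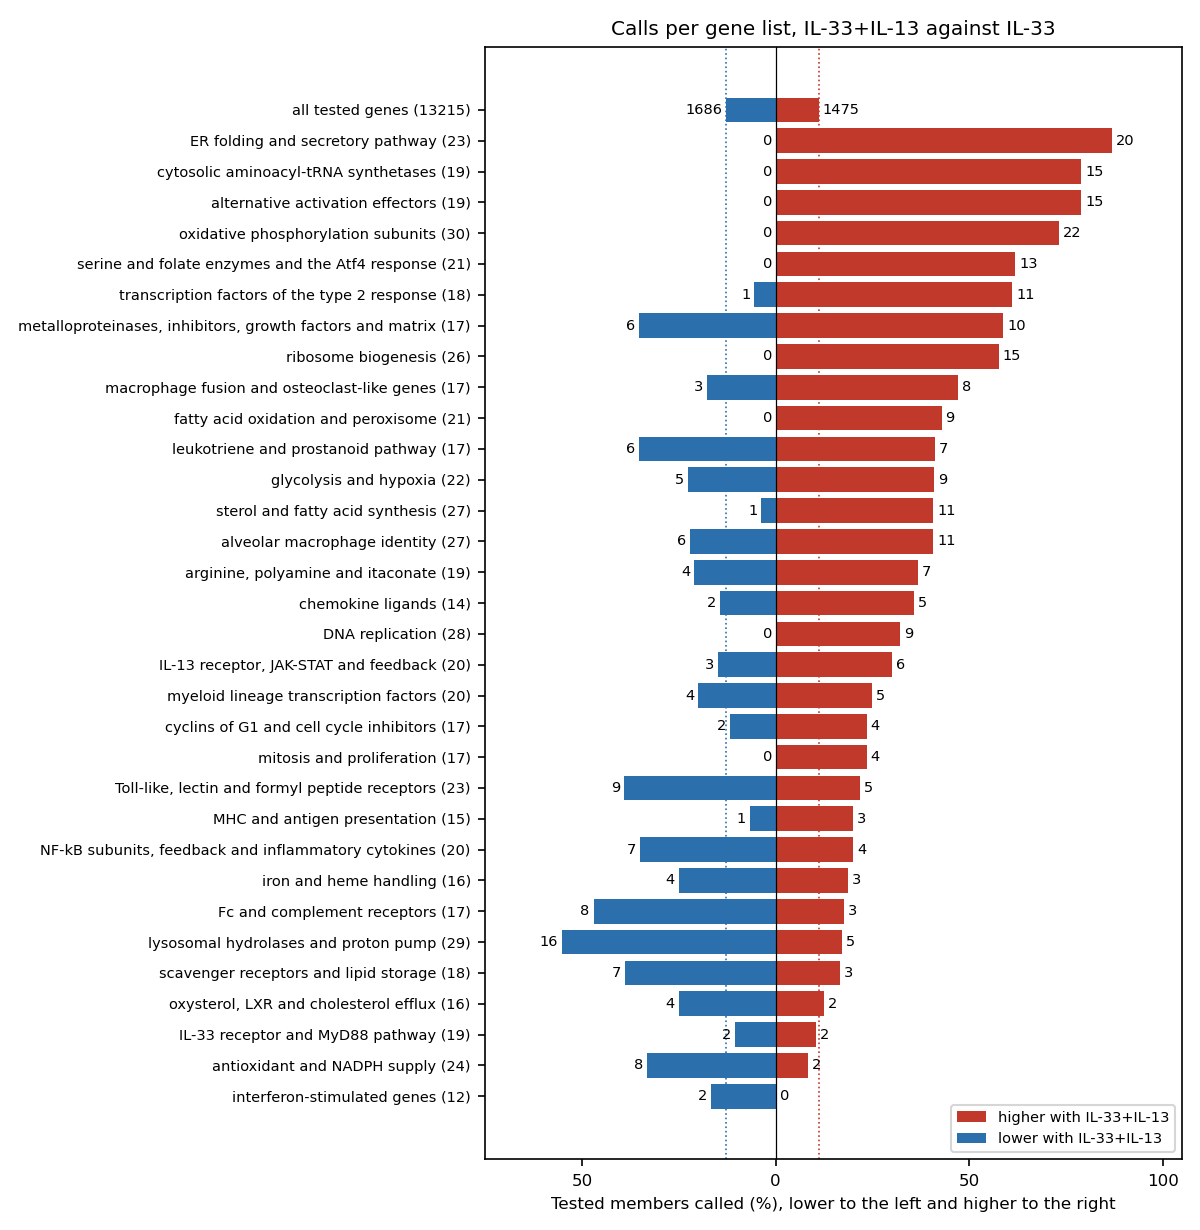
Share (%) of the tested members of each gene list that were called higher (red, to the right) and lower (blue, to the left) with IL-33+IL-13 than with IL-33 by limma, for lists with at least 10 tested members (number tested in brackets, counts at the bar ends); dotted lines mark the shares over all 13215 genes, 11.2% and 12.8%. The secretory pathway has 20 of 23 members higher and the lysosome 16 of 29 lower.

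The next question was whether IL-13 does the same with IL-33 present as without it. In the absence of IL-33, 1857 genes (14.1%) rose and 2075 (15.7%) fell with IL-13 against untreated cells, 29.8% together. The 2 responses share no library, but their tests use the same estimate of each gene's spread. Of the genes called, 2549 were called in both with the same direction, which is 80.6% of the calls with IL-33 and 64.8% of those without. Across genes, which are not independent replicates, the log2 differences correlated with Pearson r = 0.61 and Spearman rho = 0.61. Among 255 genes called in both with a mean absolute log2 difference of at least 1, 183 (71.8%) had the smaller response with IL-33, and the median ratio of the response with IL-33 to that without was 0.894. A test of the difference itself called 155 genes (1.17%): the response was more positive with IL-33 for 52 (0.393%) and more negative for 103 (0.779%). Of the 155, by sign, 58 rose less or not at all with IL-33, 33 were higher with IL-13 alone and lower with IL-33+IL-13, 42 fell less or not at all, 12 fell further, 6 went from lower to higher and 4 rose further. A rise without IL-33 and a fall with it were both called for 14 genes, and the reverse for 2.

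**Figure D3:**
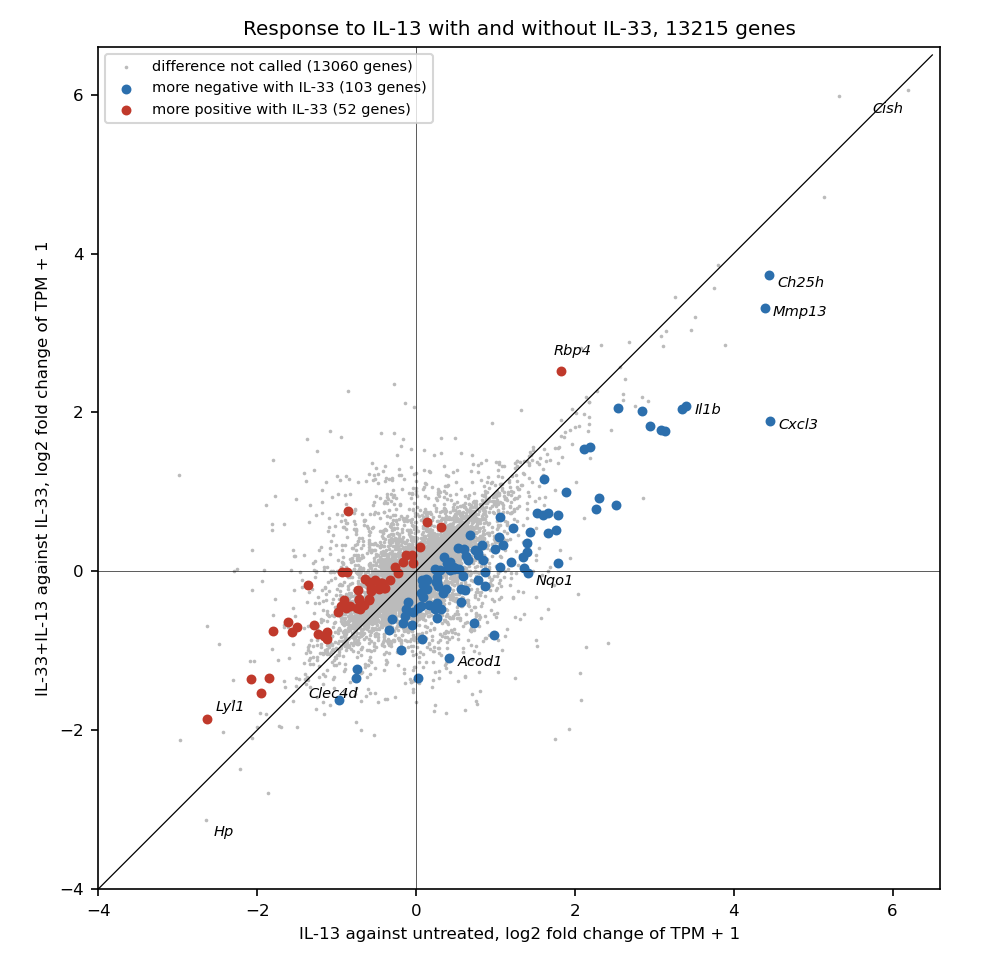
Each point is 1 of 13215 genes, with the log2 fold change of TPM + 1 for IL-13 against untreated cells on the x axis and for IL-33+IL-13 against IL-33 on the y axis; the line marks equal responses. The 103 genes with a more negative response with IL-33 (blue) include Cxcl3, Mmp13, Il1b, Nqo1 and Acod1, and the 52 with a more positive one (red) include Lyl1 and Rbp4.

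Antioxidant genes mostly rose with IL-13 alone and mostly did not with IL-33 present. Of 24 tested antioxidant and NADPH-supply genes, 19 rose and 2 fell with IL-13 alone, but 2 rose and 8 fell with IL-33 present. Over all genes 14.1% rose with IL-13 alone, and 11.2% rose and 12.8% fell with IL-33 present. Without the 1 gene that reached the filter only in libraries with IL-13, 18 of 23 rose with IL-13 alone. The difference between the responses was called, as more negative with IL-33, for 12 of the 24, beside 0.779% of all genes, and was negative in sign for 23 of 24 (95.8%), beside 48.8% of all genes. Its median was -0.35. The list was chosen with earlier results of these data known, so these shares only describe it. Peroxiredoxin 1 (Prdx1), which reduces peroxides, was at 1127, 1201 and 1168 TPM with IL-33 and 975, 936 and 968 TPM with IL-33+IL-13, and at 1135, 1078 and 1116 TPM untreated and 1391, 1364 and 1449 TPM with IL-13 alone (response difference -0.62, SE 0.05, limma adjusted p = 5.43e-06), where the response difference is the log2 response with IL-33 minus that without. Its gene lies on chromosome 4, bases 116685544 to 116700822 of mm10. Srxn1, which restores oxidised peroxiredoxins, was at 737, 765 and 762 TPM with IL-33 and 617, 673 and 651 TPM with IL-33+IL-13, and at 622, 721 and 711 TPM untreated and 991, 1015 and 1028 TPM with IL-13 alone (response difference -0.79, SE 0.08, limma adjusted p = 1.27e-05). For both genes the libraries with IL-13 alone were the highest of the 4 groups and those with IL-33+IL-13 were lower than those with IL-33.

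The same order was seen in Cat, catalase, with means of 119 ± 3.2 TPM untreated, 144 ± 4.35 with IL-13, 121 ± 1.33 with IL-33 and 106 ± 2.36 with IL-33+IL-13 (SD, n = 3; response difference -0.46, SE 0.05, limma adjusted p = 1.27e-05), and in Prdx6 (difference -0.61, adjusted p = 0.000201). Gclm, a subunit of the enzyme that limits glutathione synthesis, still rose with IL-33 present, from 32.7 ± 1.3 to 39.8 ± 0.818 TPM, but from 31.3 ± 1.63 to 63.3 ± 2.16 TPM without it (response difference -0.72, SE 0.08, limma adjusted p = 3.3e-05). Nqo1, a quinone reductase and a standard target of the factor NRF2, was at 2.55, 3.7 and 2.93 TPM with IL-33 and 3.06, 2.94 and 2.96 TPM with IL-33+IL-13, and at 2.74, 2.34 and 2.42 TPM untreated and 8.91, 7.7 and 8.29 TPM with IL-13 alone (response difference -1.43, SE 0.20, limma adjusted p = 0.000415). Nqo1 thus rose in the absence of IL-33 and overlapped between the groups in its presence. Of 4 listed enzymes of the pentose phosphate path, which supplies NADPH, 3 had a called difference: G6pdx (difference -0.41, adjusted p = 0.000469), Pgd (difference -0.40, adjusted p = 4.07e-05) and Taldo1 (difference -0.26, adjusted p = 0.000469). Tkt was not called (difference -0.23, adjusted p = 0.0654), nor were Idh1 (difference -0.11, adjusted p = 0.746) and Me1 (difference -0.36, adjusted p = 0.399), which also make NADPH. The thioredoxin reductase gene Txnrd1 (difference -0.44, adjusted p = 0.0308), the glutathione reductase gene Gsr (difference -0.39, adjusted p = 0.0198) and the superoxide dismutase gene Sod2 (difference -0.34, adjusted p = 0.0195) complete the 12. Nfe2l2, the gene of NRF2, fell with IL-13 in both settings, from 122 ± 3.99 to 90.4 ± 6.16 TPM with IL-33 present and from 115 ± 4.33 to 92.3 ± 1.45 TPM without it, and its difference was not called (adjusted p = 0.721). Blvrb, biliverdin reductase (response difference -0.71, SE 0.07, limma adjusted p = 2.41e-05), and Ptgr1, which reduces prostaglandins and reactive aldehydes (response difference -0.85, SE 0.08, limma adjusted p = 5.43e-06), are not on the list and were among the 10 smallest p of this test.

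**Figure D4:**
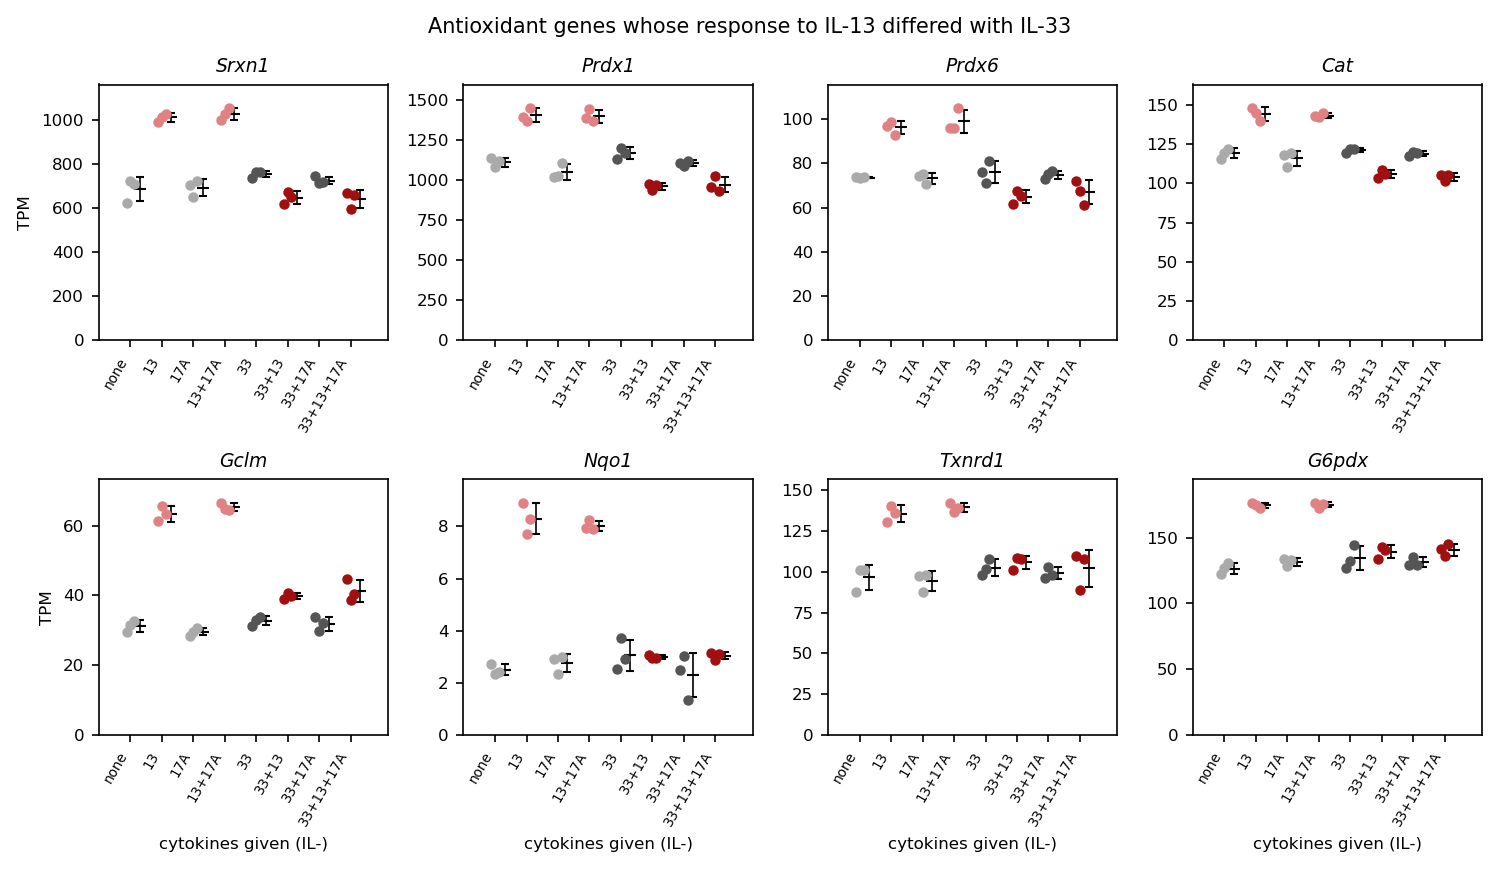
TPM (linear axis from 0) of 8 antioxidant genes in the 24 libraries, by the cytokines given; points are libraries, black marks the mean and SD of 3, light and dark colours are without and with IL-33, and grey and red are without and with IL-13. Prdx1 and Srxn1 are highest in the libraries with IL-13 and no IL-33, and in Nqo1 the groups with IL-33 do not reach the 7.7 TPM seen with IL-13 alone.

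The promoters of these genes were searched in the same 250-base windows for the core of the antioxidant response element, TGACNNNGC or its complement GCNNNGTCA, the site that NRF2 binds with small MAF proteins. It was in 4 of the 10 antioxidant genes with a window among the 12 called (40.0%), in 6 of 20 of the whole list (30%) and in 13.99% of 8906 tested genes. In the same 10 genes the STAT spacing TTCNNNGAA was in 2 (20%), beside 7.13% of tested genes. The spacing TTCNNNNGAA was in 1 (10%), beside 5.40%. Stretches of 100 bases are shown for 3 of the 4 so that the core can be seen in place, in the gene's direction with the core in capitals: Prdx1 at chr4:116685420-116685519, Gclm at chr3:122245377-122245476 and Txnrd1 at chr10:82859068-82859167, all on the plus strand of GRCm38.p6. The core begins 133, 134 and 92 bases before the start. A match is a description of the sequence and no proof of binding. The list includes standard NRF2 targets such as Nqo1, and the 12 were picked from these data. Its higher share of the core than that of all genes is therefore no test of NRF2.
Prdx1: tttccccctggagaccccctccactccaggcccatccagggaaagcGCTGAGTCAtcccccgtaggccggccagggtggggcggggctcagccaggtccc
Gclm: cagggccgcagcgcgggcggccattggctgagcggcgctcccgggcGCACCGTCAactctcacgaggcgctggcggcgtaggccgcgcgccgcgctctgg
Txnrd1: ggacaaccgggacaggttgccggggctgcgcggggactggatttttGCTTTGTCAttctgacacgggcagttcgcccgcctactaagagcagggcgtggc

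Several inflammatory and tissue-remodelling genes kept their rise but reached lower levels with IL-33. Cxcl3 went from 4.81, 7.51 and 5.19 TPM untreated to 161, 139 and 142 TPM with IL-13 alone, but to 26.5, 27.9 and 25.1 TPM with IL-33+IL-13, the largest negative difference called (response difference -2.57, SE 0.29, limma adjusted p = 5.61e-05). Il1b went from 5.6, 4.59 and 5.83 to 72.6, 59.9 and 65.6 TPM without IL-33 and to 30.9, 36.4 and 33 TPM with it (response difference -1.32, SE 0.17, limma adjusted p = 0.000205). Mmp13 went from 19.2, 22.2 and 28.4 to 502, 502 and 501 TPM without IL-33 and to 229, 269 and 263 TPM with it (response difference -1.07, SE 0.19, limma adjusted p = 0.00477). In each of these genes the IL-33+IL-13 libraries lay between the libraries without IL-13 and those with IL-13 alone. The difference was also called, with a smaller rise, for Mmp19 (difference -0.83, adjusted p = 5.06e-05), Krt79, a keratin of alveolar macrophages (difference -1.30, adjusted p = 7.27e-05), Car2, a carbonic anhydrase (difference -1.11, adjusted p = 0.000132), Ccl6 (difference -0.62, adjusted p = 0.00157), Ccl9 (difference -1.08, adjusted p = 0.00194), Ch25h (difference -0.71, adjusted p = 0.0295), Igf1 (difference -0.45, adjusted p = 0.016) and Dcstamp (difference -0.93, adjusted p = 0.00477). That of Ch25h was not called in every other setting or with each library left out, nor among the libraries with IL-17A described below. Mmp8, a neutrophil collagenase, rose from 23.9 ± 1.14 to 63.2 ± 8.91 TPM with IL-13 alone and was at 27.8 ± 6.21 and 28.5 ± 4.06 TPM without and with IL-13 when IL-33 was present (response difference -1.32, SE 0.20, limma adjusted p = 0.00145). Of the 17 matrix genes 5 had a called difference, beside 1.17% of all genes. It was more negative for 4 and more positive for 1, Spp1 (difference 0.35, adjusted p = 0.0294).

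Some genes turned from higher to lower. Clec4n, the receptor Dectin-2, was at 141, 139 and 138 TPM untreated and 165, 166 and 171 TPM with IL-13 alone, but at 149, 156 and 159 TPM with IL-33 and 103, 105 and 98.5 TPM with IL-33+IL-13 (response difference -0.86, SE 0.07, limma adjusted p = 1.1e-06). Ass1, which makes argininosuccinate for arginine recycling, was at 30.8, 31.8 and 30.9 TPM untreated and 38, 38.6 and 40.9 TPM with IL-13 alone. It was at 38.5, 35.7 and 36.4 TPM with IL-33 and 27, 25.4 and 26.5 TPM with IL-33+IL-13 (response difference -0.79, SE 0.09, limma adjusted p = 3.9e-05). Fpr1, a receptor for formyl peptides, was at 9.71, 10.5 and 8.91 TPM untreated and 20.3, 15.8 and 14.6 TPM with IL-13 alone. It was at 12.8, 9.81 and 11.2 TPM with IL-33 and 7.6, 6.73 and 6.06 TPM with IL-33+IL-13 (response difference -1.38, SE 0.25, limma adjusted p = 0.00681). For Clec4n, Ass1 and Fpr1 the rise without IL-33 and the fall with it were each called. Acod1, which makes itaconate, fell with IL-33 present (23, 18.4 and 22.1 TPM with IL-33 and 7.73, 11.6 and 9.04 TPM with IL-33+IL-13) and was not called without it (18.2 ± 2.12 and 24.7 ± 2.89 TPM), with a called difference (response difference -1.51, SE 0.24, limma adjusted p = 0.00165). Pla2g7, the hydrolase of platelet-activating factor, had the smallest p of all and fell in both settings, further with IL-33. It was at 53, 54.4 and 52.4 TPM untreated and 48.2, 45.8 and 46.4 TPM with IL-13 alone. It was at 54, 59.7 and 56.3 TPM with IL-33 and 26.9, 28.7 and 28.7 TPM with IL-33+IL-13 (response difference -0.80, SE 0.06, limma adjusted p = 1.1e-06). Clec4d fell further as well (difference -0.59, adjusted p = 6.77e-05).

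**Figure D5:**
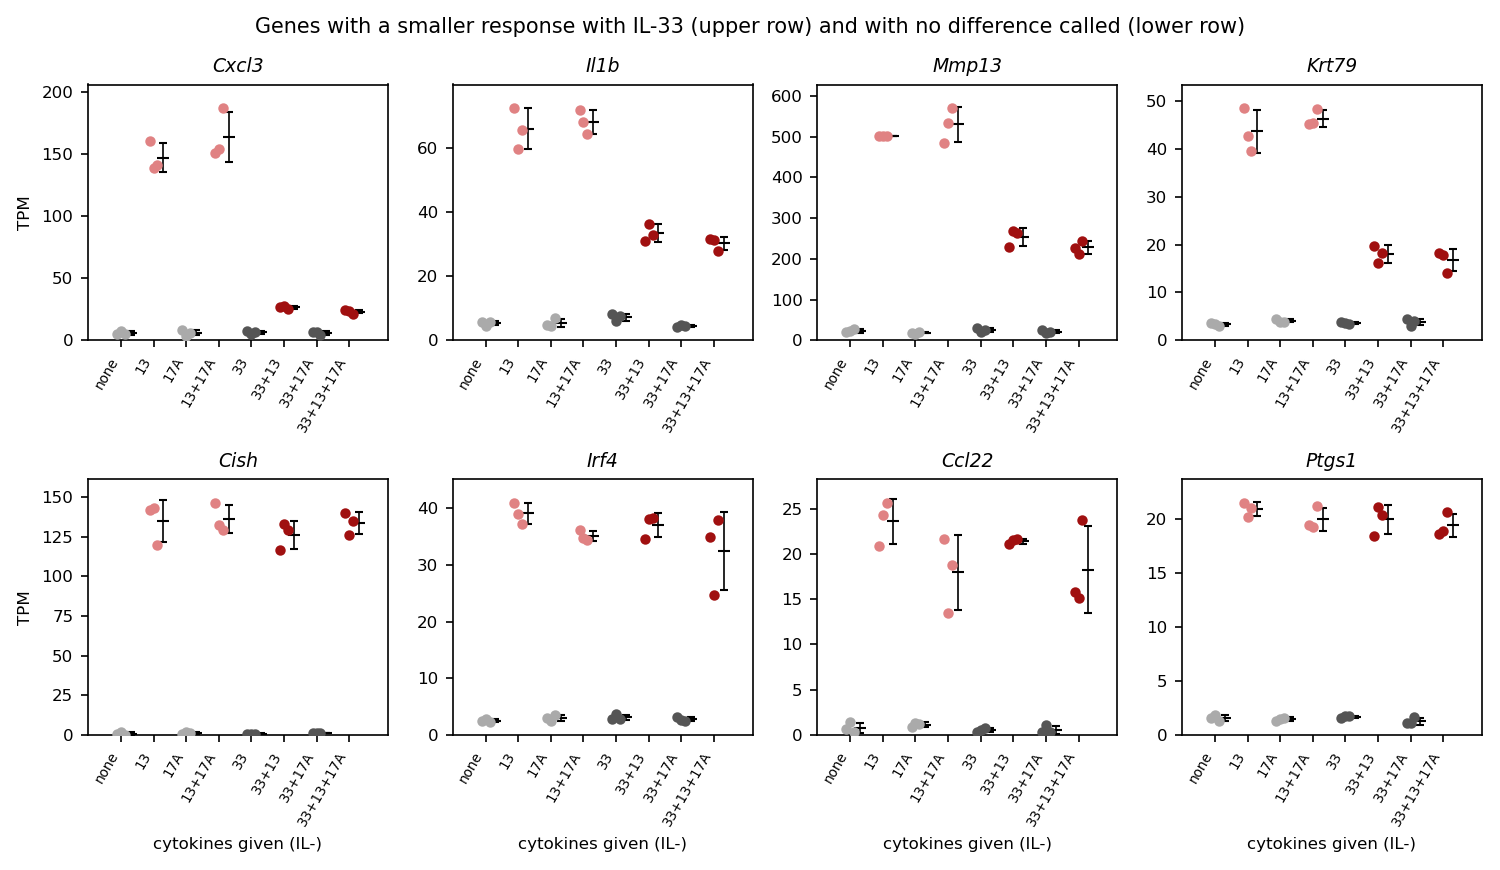
TPM (linear axis from 0) of 8 genes in the 24 libraries, by the cytokines given, with points, marks and colours as in the plot of antioxidant genes. In the upper row the dark red groups reach lower levels than the light red ones (Cxcl3 25.1 to 27.9 TPM with IL-33+IL-13), and in the lower row, with Cish, Irf4, Ccl22 and Ptgs1, no difference was called.

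No difference was called for several genes with large responses to IL-13. The difference was -0.13 for Cish (95% interval -0.73 to 0.46), 0.06 for Ccl22 (95% interval -0.61 to 0.72), -0.30 for Irf4 (95% interval -0.67 to 0.06), -0.12 for Ptgs1 (95% interval -0.40 to 0.15) and 0.04 for Pparg (95% interval -0.10 to 0.18). Chil3 had a difference -0.19, adjusted p = 0.0959, with levels of 4342 ± 171 TPM with IL-33+IL-13 and 5167 ± 131 TPM with IL-13 alone. In the alternative activation list 2 of 19 differences were called, beside 1.17% of all genes. Both were more negative: Chil4 (difference -0.80, adjusted p = 0.0325) and Il1rn (difference -0.52, adjusted p = 0.0449). Chil4 was at 0 TPM with IL-33 and 0.676 ± 0.282 TPM with IL-33+IL-13, so its difference lies near the floor. These calls depended on the processing: 0 to 2 were made over the other settings and with 1 library left out. Among the libraries with IL-17A, described below, 3 members were called as more negative, and neither of these 2 was among them. None of the 20 IL-13 signalling genes, 18 type 2 factors, 23 genes of the secretory pathway, 19 tRNA synthetases, 26 ribosome biogenesis genes or 30 oxidative phosphorylation subunits had a called difference. Where 1.17% of all genes are called, lists of this size may well hold none. By sign, the difference was positive for 20 of the 23 secretory genes (87%), beside 51.2% of all genes, and negative for 3. Its median there was 0.07. It was negative for 13 of the 18 type 2 factors (72.2%), beside 48.8% of all genes, and positive for 5. A missed threshold does not show that the responses were equal: the 95% interval of the difference lay within 2-fold for 95.5% of 6813 genes that averaged at least 10 TPM, but for 63.2% of the 6402 below.

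Of the genes of DNA replication and mitosis, 5 had a response to IL-13 that was called as more negative with IL-33. This count depended on the processing, as given below. With IL-13 alone 19 of 28 replication genes and 15 of 17 mitosis genes rose and none fell, beside 14.1% of all genes, while with IL-33 present 9 and 4 did, beside 11.2%. Of these lists, 3 replication and 5 mitosis genes reached the filter only in libraries with IL-13. Without them, 16 of 25 replication genes and 10 of 12 mitosis genes rose with IL-13 alone, and 8 and 4 with IL-33 present. These levels were low: Mki67, a marker of cycling cells, was at 1.36, 1.29 and 1.47 TPM with IL-33 and 2.59, 2.47 and 1.92 TPM with IL-33+IL-13, and at 1.23, 1.79 and 1.18 TPM untreated and 6.77, 6.67 and 6.17 TPM with IL-13 alone (response difference -1.18, SE 0.22, limma adjusted p = 0.00889). Its rise with IL-33 present was no longer called without any 1 of 5 of the 6 libraries. Top2a, the topoisomerase of dividing cells, went from 0.82 ± 0.225 to 3.88 ± 0.0998 TPM without and from 0.811 ± 0.152 to 1.55 ± 0.222 TPM with IL-33 (response difference -0.94, SE 0.19, limma adjusted p = 0.0167). Uhrf1, which maintains DNA methylation at replication, was called too (difference -0.89, adjusted p = 0.0224). Of the 28 replication genes the difference was negative in sign for 25 and called for 1, and of the 17 mitosis genes it was negative for 17 and called for 4. Over all genes it was negative for 48.8% and called as more negative for 0.779%. Over the other settings and with 1 library left out, 0 to 5 replication and 1 to 7 mitosis genes were called as more negative. Counts of called members depended on single libraries: the 4 mitosis genes went to 1 without IL-33+IL-13 replicate 2 and to 2 without IL-33 replicate 2 or without IL-33 replicate 3, and the 9 replication genes to 6 in a fit to these 6 libraries alone. The cyclin gene Ccna2, at 1.06, 0.579 and 0.545 TPM with IL-33 and 1.67, 2.72 and 1.21 TPM with IL-33+IL-13, had an adjusted p of 0.137 without IL-33+IL-13 replicate 2.

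Of the 52 genes with a more positive response, 42 fell less with IL-33 than without it or not at all, by sign. Apoe, apolipoprotein E, fell from 243 ± 27.1 to 84.9 ± 10.4 TPM without IL-33 and from 195 ± 22.6 to 119 ± 9.77 TPM with it (response difference 0.80, SE 0.17, limma adjusted p = 0.0186). The difference for Apoe was not called in every other setting or with each library left out, nor among the libraries with IL-17A described below. Lyl1 fell from 44.6 ± 4.1 to 6.38 ± 0.247 TPM without IL-33, a larger fall than that given above (response difference 0.77, SE 0.17, limma adjusted p = 0.0297). Among lysosomal genes, 21 of 29 fell with IL-13 alone and 16 with IL-33 present; the difference was positive in sign for 26 (89.7%), beside 51.2% of all genes, and called as more positive for 4, beside 0.393%, among them Hexa (difference 0.24, adjusted p = 8.08e-05), Ctsd (difference 0.27, adjusted p = 0.00314) and Lamp1 (difference 0.21, adjusted p = 0.000252). The 4 lysosomal calls depended on the processing: 0 to 5 were made over the other settings and with 1 library left out. Rises that grew were rarer. Rbp4, retinol-binding protein, was at 7.16, 8.54 and 8.39 TPM untreated and 32.7, 27.7 and 32.7 TPM with IL-13 alone, and at 7.66, 7.31 and 8.13 TPM with IL-33 and 53.7, 48.7 and 44.3 TPM with IL-33+IL-13 (response difference 0.69, SE 0.12, limma adjusted p = 0.0052). Hcar2, the receptor for niacin and ketone bodies, was at 367, 393 and 383 TPM untreated and 442, 412 and 405 TPM with IL-13 alone. It was at 396, 381 and 431 TPM with IL-33 and 622, 618 and 619.8 TPM with IL-33+IL-13 (response difference 0.48, SE 0.09, limma adjusted p = 0.00605). For both genes the IL-33+IL-13 libraries were the highest of the 4 groups.

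The same difference was then measured in the 12 libraries that received IL-17A, which share no library with those above; this check was added after the data had been seen. Both tests came from the same fit and share its estimate of each gene's spread, so their calls are not independent. There, 200 genes (1.51%) had a response to IL-13 that differed with and without IL-33, 83 (0.628%) more positive and 117 (0.885%) more negative. Of the 155 genes, 149 had the same sign and 93 (60%) were called with the same sign, and none was called with the opposite one. The median difference of the 103 more negative genes was -0.62 without IL-17A and -0.49 with it, and that of the 52 more positive genes 0.36 and 0.27. The genes were chosen by their calls without IL-17A, which inflates their medians there. The medians therefore do not tell whether IL-17A changed the difference. Among antioxidant genes 13 of 24 were called there as more negative, 11 of them among the 12. Of the mitosis genes 8 of 17 and of the replication genes 8 of 28 were more negative. Of the 4 lysosomal genes 1 was called again, with differences of 0.19 for Hexa and 0.10 for Lamp1, and Ctsd had no difference there beyond its error. Without IL-33+IL-13+IL-17A replicate 2, the library that stood farthest from the others, 140 genes were called there and 78 of the 155 were called with the same sign.

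Adding IL-17A to IL-33 changed the response to IL-13 for 1 gene (0.00757% of those tested), with 950 at an unadjusted p under 0.05. That gene was Tnf, whose levels with IL-33 and with IL-33+IL-13 are given above. With IL-33+IL-17A it was at 127, 127 and 109 TPM and with IL-33+IL-13+IL-17A at 144, 142 and 131 TPM (difference of the log2 responses 0.88, SE 0.12, limma adjusted p = 0.00853). In the pair without IL-17A the libraries with IL-13 were the lower ones, and in the pair with IL-17A they were the higher ones. This test shares the IL-33 and IL-33+IL-13 libraries with the test against cells without IL-33, in which Tnf differed as well (difference -0.63, adjusted p = 0.0086). In a fit to the 12 libraries compared, the adjusted p of the Tnf difference with IL-17A was 0.152, and the gene called there was another, Gm6900 (adjusted p = 0.0101), named after its value was seen. Without IL-33+IL-13+IL-17A replicate 2 the adjusted p for Tnf was 0.0429. The next smallest p, for A830035O19Rik and Polr1d, gave differences of 1.66 and 0.29 with adjusted p = 0.21 and 0.21.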

How the data were processed

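RNA of 24 libraries of primary mouse alveolar macrophages was sequenced on a NovaSeq instrument, per the labels' protocols. The deposited values are TPM, computed by the authors for 17017 genes; the submitters' processing notes name STAR and mm10, while the counting tool, strand setting and versions were not given. The deposited gene lengths span introns. Reads recovered from TPM and length came out whole, within 0.05, for 90.2 to 91.7% of values up to 20 reads, at 9.11 to 12.86 M reads per library, and served an alternative fit only.

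Genes with at least 1 TPM in 3 of 24 libraries (13215) were fitted as log2(TPM + 1) with limma 3.58.1 in R 4.3.3, with 8 group means, 16 residual degrees of freedom and a mean-variance trend; p-values were adjusted by Benjamini-Hochberg over all tested genes, with a threshold of 0.05. Differences between 2 responses were contrasts of the same fit. Alternatives were other pseudocounts, filters, scaling, libraries in the fit, no trend, voom, and leaving out each library.

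The members and gene lists were chosen with earlier results of these data known. Genes named are the 12 largest called changes in each direction with a mean of at least 5 TPM in the higher group, no overlap of libraries and a settled symbol, up to 5 called members of each list by smallest p, the receptors, and the 10 smallest p of the difference test (3 smallest where fewer than 3 genes were called). Others named, such as Nqo1, Fpr1, Acod1 and Rbp4, were chosen after their values were seen.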

Additional observations from a re-analysis of the deposited data

Results flagged for a closer look

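The response to IL-13 differed with and without IL-33 for 155 genes by limma's test of the difference. The 10 smallest p belonged to genes whose response was more negative with IL-33, with differences of the log2 responses of -0.80 for Pla2g7, -0.86 for Clec4n, -0.62 for Prdx1, -0.85 for Ptgr1, -0.79 for Srxn1, -0.46 for Cat, -0.71 for Blvrb, -0.72 for Gclm, -0.79 for Ass1 and -0.40 for Pgd. Each of these 10 was called under every alternative and with each library left out. The difference for Tnf, 0.88 between the responses with IL-33 and IL-17A and with IL-33, was the one difference tied to IL-17A that was called.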

How the results depend on the processing

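Over the other settings, 1288 to 1795 genes were higher and 1459 to 1991 lower with IL-33+IL-13 than with IL-33, against 1475 and 1686, and with 1 library left out 1190 to 1414 and 1285 to 1658. The difference between the responses with and without IL-33 was called for 109 to 203 genes over the other settings and 114 to 152 with 1 library left out, against 155; of the 155, 87 were called again in a fit to the groups compared, 108 by voom on recovered reads, 116 with median-ratio scaling and 110 to 126 with 1 library left out. The difference tied to IL-17A was called for Tnf alone, with 2 exceptions: in a fit to the groups compared 1 gene was called, but it was Gm6900 and not Tnf (limma adjusted p = 0.152 for Tnf), and without IL-33+IL-13+IL-17A replicate 3 it was called for 2 genes, Tnf and Polr1d (limma adjusted p = 0.0364 for Polr1d). Of 185 named genes, 173 kept their direction and their side of the threshold under each alternative, and none reversed; the cause of the lost calls was not tested. With median-ratio scaling the decreases of Taldo1, Ptgr1, Cd68 and H2-D1 were no longer called (adjusted p = 0.08, 0.058, 0.0509 and 0.147), and in a fit to the groups compared those of Pgd and S100a8 were not (adjusted p = 0.066 and 0.0686). Mki67 was not called with TPM of 5 or more as the filter nor without any 1 of 5 of the 6 libraries, with adjusted p up to 0.115. The added measurement among libraries with IL-17A gave 105 to 237 genes with 1 of them left out, against 200, with 68 to 88 of the 155 called again. No paired analysis was possible because the labels give no number shared between groups; the replicate numbers used here are names only. Genes below 10 TPM had a median SE of 0.153, against 0.0741 above, so small differences of low genes were not detectable.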
